A study of Bos taurus with 12 samples.

Results

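The E2F transcription factors, their DP partners and the pocket proteins were described in bovine blastomeres (single cells of early embryos) sorted by what their sister cells later did. Members were all probes whose gene symbol in the annotation table was E2F1, E2F3, E2F4, E2F5, TFDP1, TFDP2, RB1, RBL1 or RBL2. This gave 8 of the 9 genes, out of 15216 genes named on the array, with 10 probes of 43793. RB1 had 3 probes, each other gene had 1, and RBL1 was not analysed here. The group was proposed with earlier results of these arrays known, chiefly the averaged ratios of E2F4 and TFDP1, so averaged ratios of members are descriptions. Where members are counted past a p for these ratios, the share of all probes stands beside the count and nothing is read from it.

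Embryos were split at the 2-cell stage, and one blastomere was frozen while its sister was cultured alone to day 7. BL stands for blastomeres whose sisters reached the blastocyst stage, and 2CB for those whose sisters stayed at the 2-cell stage. The third class is called 8CB in the labels, although its sisters are described there as blocked at the 4-cell stage. Each class had 3 independent pools of 15 blastomeres, so a value averages over several embryos, and all were in vitro embryos whose RNA was amplified and labelled directly with Cy5 or Cy3 at guanine. There were 6 arrays of BL with 2CB and 6 of BL with 8CB, and BL carried Cy5 on 3 arrays of each comparison and Cy3 on the other 3.

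E2F proteins bind DNA as dimers with a DP protein and control genes of DNA synthesis and mitosis. E2F1 and E2F3 mainly activate, while E2F4 and E2F5 mainly repress in resting cells, where they are held by the pocket proteins RBL1 and RBL2. Cyclin-dependent kinases phosphorylate pocket proteins and release E2F. The first embryonic cleavages run largely on stored maternal RNA, before the bulk of the embryo's own transcription begins.

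The deposited values were log2 ratios of the 2 channels of an array, so a level in BL, 2CB or 8CB and its distance from background could not be given. The labels did not settle which class is the numerator, and values are therefore called positive or negative only. If values are Cy5 over Cy3, swapping the dyes turns the sign of a real difference and keeps a dye effect. If swapped arrays had already been turned, it is the other way round. Dye-swapped arrays of a replicate number, taken to hold the same pools, deviated from their means in the same direction in 5 of 6 pairs (median r across probes 0.38), and their average was the main measure. The other measure was the half-difference, (BL in Cy5 minus BL in Cy3)/2, which the choice of members did not use and which was tested over all probes. The 12 arrays had medians from -0.003 to 0.010 and SDs from 0.26 to 0.38, and their number limits the precision.

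E2F4 was the only member with the same sign on every array, positive on 12 of 12. Among all probes, 2.14% kept one side on all 12 arrays. In BL against 2CB, the E2F4 probe stood at 0.34, 0.29 and 0.06 with BL in Cy5 (replicates 1 to 3) and at 0.63, 0.72 and 0.61 with BL in Cy3. The orientations did not overlap: each value with BL in Cy3 lay above each with BL in Cy5. In BL against 8CB it stood at 0.22, 0.49 and 0.10 with BL in Cy5 and at 0.72, 0.38 and 0.61 with BL in Cy3, and here the orientations overlapped in replicate 2. Averaged over the dyes, the ratio was 0.44 ± 0.05 against 2CB and 0.42 ± 0.05 against 8CB (log2, SE, n = 3 each), sizes of 1.36-fold and 1.34-fold. These are close to each other, with a 2CB minus 8CB difference of 0.02 ± 0.07, and both comparisons share BL. If the classes differed, pools could not show whether the number of blastomeres with the transcript or the amount in each differed.

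TFDP1, the most widespread DP partner of the E2F proteins, lay on the negative side on 11 of 12 arrays. Against 2CB it stood at -0.53, -0.46 and -0.40 with BL in Cy5 and at -0.25, -0.06 and 0.31 with BL in Cy3. The values with BL in Cy5 lay together, those with BL in Cy3 were spread out, and the orientations did not overlap. Against 8CB the values were -0.83, -0.66 and -0.39 with BL in Cy5 and -0.09, -0.39 and -0.62 with BL in Cy3, with the orientations overlapping. The averages of replicates 1 to 3 were -0.46, -0.53 and -0.51 against 8CB, and -0.39, -0.26 and -0.05 against 2CB. The mean ratio was -0.50 ± 0.07 (SE, n = 3) against 8CB, a size of 1.41-fold, and -0.23 ± 0.07 against 2CB, a size of 1.18-fold. In the averaged ratios, E2F4 and TFDP1 thus lay on opposite sides in both comparisons. The plot of all 12 values shows this as an E2F4 row right of 0 and a TFDP1 row mostly left of it. The opposite sides do not hold for the half-difference, which was negative for both genes. It was -0.21 against 2CB and -0.15 against 8CB for E2F4, and -0.23 and -0.13 for TFDP1.

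**Figure D1:**
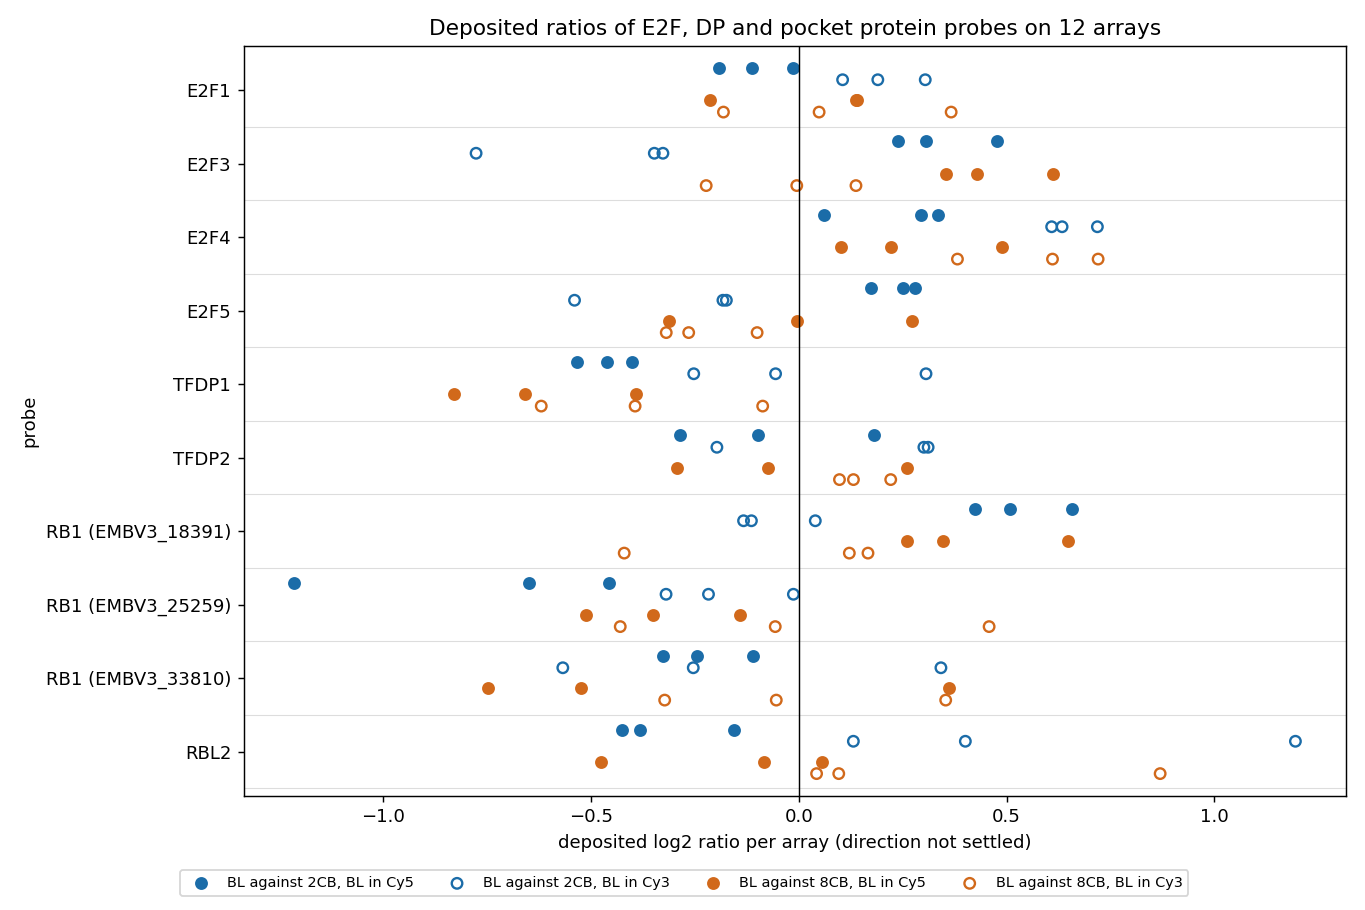
Deposited log2 ratio (x axis) of each of the 10 probes (y axis) on each of 12 arrays. Filled points are arrays with BL in Cy5 and open points arrays with BL in Cy3, blue for BL against 2CB and orange for BL against 8CB. All 12 E2F4 points lie above 0 and 11 of 12 TFDP1 points below 0, while the filled and open points of E2F3 and RBL2 against 2CB stand apart on opposite sides.

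Of the activator E2Fs, E2F3 followed the dye orientation in both comparisons. Against 2CB it stood at 0.24, 0.31 and 0.48 with BL in Cy5 and at -0.33, -0.35 and -0.78 with BL in Cy3. Every value of one orientation was positive and every value of the other negative. Against 8CB it stood at 0.61, 0.35 and 0.43 with BL in Cy5 and at -0.22, -0.0049 and 0.14 with BL in Cy3, again without overlap. The averages nearly cancelled against 2CB, at -0.07 ± 0.04 (SE, n = 3), and remained positive against 8CB, at 0.22 ± 0.04. E2F1, the other activator, also split by orientation against 2CB, but the other way round, at -0.01, -0.19 and -0.11 with BL in Cy5 and at 0.11, 0.19 and 0.30 with BL in Cy3. Against 8CB its values ran from -0.21 to 0.37 and the orientations overlapped. Its averages were 0.05 ± 0.07 (SE, n = 3) in both comparisons, smaller than their error.

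The second repressor, E2F5, also followed the orientation in BL against 2CB. It stood at 0.17, 0.25 and 0.28 with BL in Cy5 and at -0.18, -0.17 and -0.54 with BL in Cy3. Its averages were -0.03 ± 0.08 against 2CB and -0.12 ± 0.08 against 8CB (SE, n = 3 each), where the orientations overlapped. The E2F4 pattern was thus not shared by E2F5, which lay on the positive side on 4 of 12 arrays. TFDP2, the second DP partner, lay on the positive side on 7 of 12 arrays, with averages of 0.04 ± 0.10 and 0.06 ± 0.10, and its replicate averages ran from -0.24 to 0.24 against 2CB.

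The 3 RB1 probes disagreed. RB1 encodes the retinoblastoma protein, the pocket protein that holds the activator E2Fs. Probe EMBV3_18391 stood at 0.66, 0.42 and 0.51 with BL in Cy5 and at -0.11, -0.13 and 0.04 with BL in Cy3 against 2CB. Probe EMBV3_25259 stood at -0.46, -0.65 and -1.21 with BL in Cy5 and at -0.01, -0.32 and -0.22 with BL in Cy3. The orientations did not overlap for either probe, but the higher orientation was BL in Cy5 for the first and BL in Cy3 for the second. Their averages against 2CB were 0.23 ± 0.09 and -0.48 ± 0.14 (SE, n = 3 each), on opposite sides in each of the 3 replicates. Against 8CB they were 0.19 ± 0.09 and -0.17 ± 0.14, with replicate averages on both sides of 0 for each. Probe EMBV3_33810 averaged -0.19 ± 0.19 against 2CB and -0.16 ± 0.19 against 8CB, about the size of its error.

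Over the 12 arrays, the RB1 probes EMBV3_18391 and EMBV3_25259 correlated at -0.36, EMBV3_18391 and EMBV3_33810 at -0.31, and EMBV3_25259 and EMBV3_33810 at 0.49. These are descriptions over arrays that share pools and dyes. No single side can be given for RB1.

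RBL2, the pocket protein that pairs with E2F4 in resting cells, ran from -0.48 to 1.19 over the 12 arrays. Against 2CB it stood at -0.16, -0.38 and -0.43 with BL in Cy5 and at 0.40, 1.19 and 0.13 with BL in Cy3. All 3 values of each orientation lay on one side, and replicate 2 with BL in Cy3 was the highest value of any member. Against 8CB it stood at -0.08, -0.48 and 0.06 with BL in Cy5 and at 0.87, 0.10 and 0.04 with BL in Cy3, where the orientations overlapped. Its averages of 0.13 ± 0.14 and 0.08 ± 0.14 (SE, n = 3 each) were within their error.

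**Figure D2:**
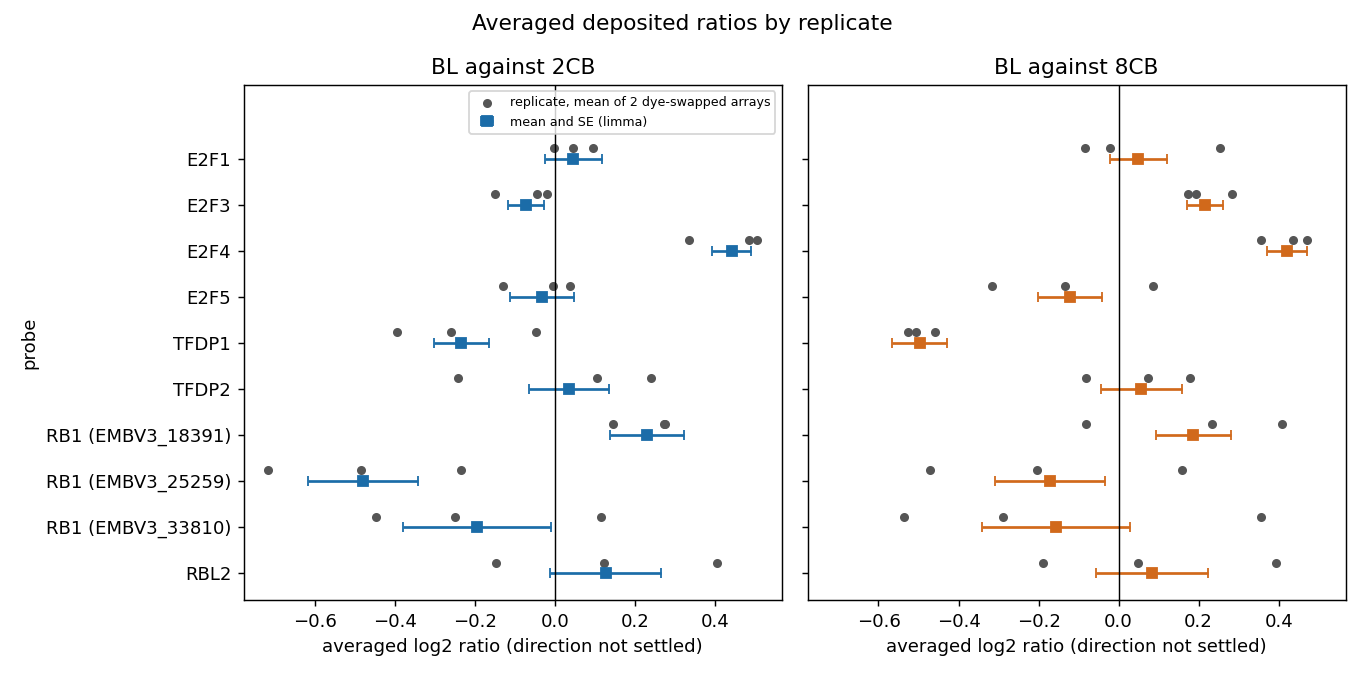
Averaged log2 ratio (x axis) of the 10 probes (y axis) in BL against 2CB (left) and BL against 8CB (right). Dots are the 3 replicates, each the mean of 2 dye-swapped arrays, and squares with bars are the mean and SE from limma. E2F4 stands at 0.44 and 0.42, TFDP1 at -0.23 and -0.50, and the RB1 probes EMBV3_18391 and EMBV3_25259 lie on opposite sides of 0.

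Counted over members, 4 of 10 probes had an unadjusted p under 0.05 for the averaged ratio against 2CB, where 16.6% of all probes did. They were E2F4 and RB1 probe EMBV3_18391 on the positive side (7.44% of all probes), and TFDP1 and RB1 probe EMBV3_25259 on the negative side (9.11%). Against 8CB there were 3 of 10, with 9.78% of all probes: E2F4 and E2F3 on the positive side (4.67%) and TFDP1 on the negative side (5.11%). One side in all 3 replicates was kept by 5 of 10 probes against 2CB (43.1% of all probes) and by 3 of 10 against 8CB (27.7%). One side on all 6 arrays was kept by 2 of 10 against 2CB, E2F4 and RB1 probe EMBV3_25259 (12.7% of all probes), and by 2 of 10 against 8CB, E2F4 and TFDP1 (5.85%). Since members were chosen from these ratios, nothing is read from these shares. At an adjusted p under 0.05 the main limma fit called 0 of 43793 probes, and so 0 members, in either comparison. That fit does not pair the replicate numbers across the comparisons.

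A further fit used the 12 single arrays, with a coefficient for the dye of BL and a random block for each replicate number of a comparison. In it, E2F4 and RB1 probe EMBV3_25259 were among the 5.69% of probes past an adjusted p of 0.05 against 2CB. Against 8CB, E2F4 and TFDP1 were among the 1.82%. With the replicate number as a fixed block across the comparisons, 2 member probes, E2F4 and RB1 probe EMBV3_25259, were among the 3.19% called against 2CB, and 0 of 10 were called against 8CB, where 0 probes of the array passed. These are again values of the ratios that chose the members.

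The median size of the averaged ratio over the 10 probes was 0.16 in each comparison, against 0.07 (2CB) and 0.05 (8CB) over all probes. Members were proposed with these ratios known, and all probes include 22003 without a symbol, so nothing is read from the larger size. The signed median was 0.00 against 2CB, with 5 of 10 probes positive, and 0.05 against 8CB, with 6 of 10 positive. Over all probes it was 0.01 and 0.00, with 54.7% and 51.9% positive. The members therefore shared no side.

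The half-difference of dye-swapped arrays passed the test for 3 of the 10 probes against 2CB, all on the positive side, that is, higher with BL in Cy5. Of all probes 8.13% passed, 4.63% on the positive side. E2F3 had a half-difference of 0.41 ± 0.08 (SE, n = 3; limma adjusted p = 0.032), RB1 probe EMBV3_18391 one of 0.30 ± 0.05 (limma adjusted p = 0.026), and E2F5 one of 0.27 ± 0.06 (limma adjusted p = 0.042). All 3 replicates were positive for each of these probes. If the values are Cy5 over Cy3 they would be BL over 2CB, with sizes of 1.33-fold, 1.23-fold and 1.2-fold, and if swapped arrays were already turned they would be dye effects. The labels do not settle which. With the replicate number as a fixed block across the comparisons, the limma adjusted p was 0.16 for all 3 probes. This is above the threshold, so these calls were lost. Half-differences of the same number did not deviate together in the comparisons (r across probes -0.24, -0.06 and -0.49), so this block has no support as a pairing for them. With one replicate number left out in turn, the limma adjusted p ran from 0.074 to 0.32 for E2F3 and from 0.12 to 0.33 for E2F5. For RB1 probe EMBV3_18391 it was 0.11 without replicate 1, 0.33 without replicate 2 and 0.046 without replicate 3.

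On the negative side, 0 members passed against 2CB, where 3.5% of all probes did. RBL2 had -0.45 ± 0.12 (SE, n = 3; limma adjusted p = 0.069), RB1 probe EMBV3_25259 -0.30 ± 0.08 (limma adjusted p = 0.060) and E2F4 -0.21 ± 0.07 (limma adjusted p = 0.093). The half-difference of TFDP1 was -0.23 ± 0.09 (limma adjusted p = 0.14). So for E2F4, turning the arrays by the labelled dyes puts the ratio on the other side of 0, while TFDP1 stays negative at about the size of its average against 2CB.

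Against 8CB, 0 of 10 probes passed, where 4.63% of all probes did (3.06% positive, 1.57% negative). The half-differences of RB1 probe EMBV3_18391 (0.23 ± 0.05, SE, n = 3, limma adjusted p = 0.060) and E2F3 (0.25 ± 0.08, limma adjusted p = 0.12) were positive in all 3 replicates. Those of E2F4 (-0.15 ± 0.07) and TFDP1 (-0.13 ± 0.09) had limma adjusted p-values of 0.22 and 0.40. The orientations did not overlap for 8 of 10 probes against 2CB (34.9% of all probes) and for 2 of 10 against 8CB (24.1%), E2F3 and RB1 probe EMBV3_18391. The difference in half-difference between the comparisons passed an unadjusted p of 0.05 for 0 of 10 members and for 0.966% of all probes.

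**Figure D3:**
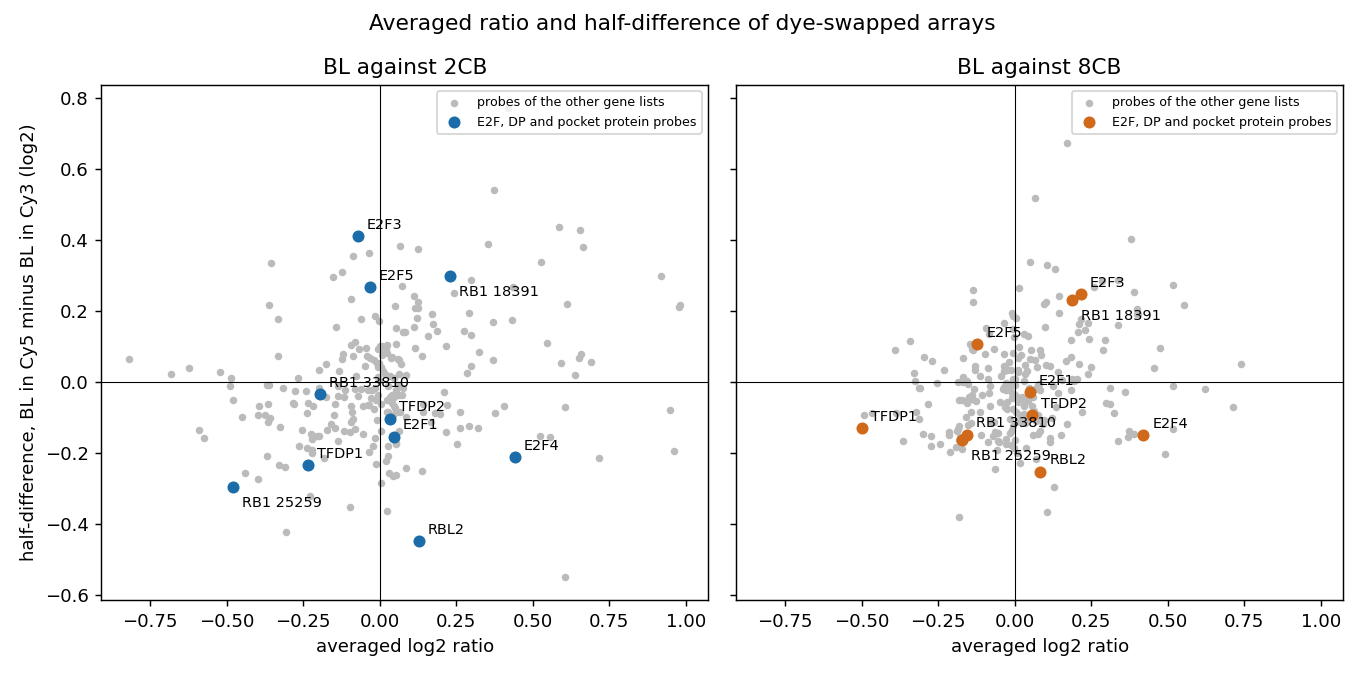
Averaged log2 ratio (x axis) against the half-difference of dye-swapped arrays (y axis, log2) for BL against 2CB (left) and BL against 8CB (right). Coloured points are the 10 E2F, DP and pocket protein probes and grey points the probes of the other gene lists. E2F4 lies at the lower right (0.44 and -0.21 against 2CB), TFDP1 at the lower left, and E2F3 and RBL2 near 0 on the x axis with half-differences of 0.41 and -0.45 against 2CB.

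Between the arrested classes, the difference of averaged ratios (2CB ratio minus 8CB ratio) was -0.29 ± 0.06 (SE) for E2F3, 0.26 ± 0.10 for TFDP1 and -0.31 ± 0.19 for RB1 probe EMBV3_25259. E2F3 and TFDP1 were the 2 of 10 members with an unadjusted p under 0.05, where 4.53% of all probes had one and 0 passed adjustment in limma. For the other 7 probes the difference lay between -0.04 and 0.09, each within its error. The arrays never set 2CB beside 8CB directly, and both ratios share BL. The SEs of these differences hold no term for the replicate number.

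By profile over the 12 arrays, the genes most like E2F4 were ZMYND12 (Pearson r = 0.93), SPRED1, an inhibitor of Ras signalling (0.92), ASB17 (0.92), GTPBP4, a GTPase of ribosome assembly (0.92), and AQP9, a water and glycerol channel (0.91). Their averaged ratios lay between -0.02 and 0.04 in both comparisons, so they followed E2F4 from array to array without its offset from 0. Most like TFDP1 were NIP7, a ribosome assembly factor (0.97), the taste receptor T2R12 (0.96), PPP1CB, a catalytic subunit of protein phosphatase 1 (0.95), FKBP14 (0.94) and the matrix protein POSTN (0.94). Among members, E2F4 correlated with TFDP1 at 0.51 and with E2F3 at -0.79, and TFDP1 with E2F3 at -0.89. The arrays share pools and dye orientation, and these values are descriptions. In RefSeq's gene order for ARS-UCD2.0, the neighbours of E2F4 are EXOC3L1, at 0.13 and 0.02 (averaged ratios against 2CB and 8CB), and ELMO3, at 0.02 and 0.04. Those of TFDP1 are TMCO3, at -0.23 and 0.02, and ATP4B, at -0.00093 and 0.03.

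The other E2F genes on the array, E2F2, E2F6 and E2F8, with 5 probes, had averaged ratios from -0.14 to 0.18, and 0 of the 5 probes had an unadjusted p under 0.05 in either comparison. Of all probes, 16.6% had one against 2CB and 9.78% against 8CB. These include 22003 without a symbol, so nothing is read from larger list shares. In the DREAM complex, E2F4, a DP protein and RBL2 join the MuvB core to silence cell cycle genes. A list of core subunits also held MYBL1, MYBL2, FOXM1 and DYRK1A. Against 2CB, 4 of its 11 probes (36.4%) had such a p. RBBP4 and LIN52 of the core were positive, and MYBL1 and DYRK1A negative. Against 8CB there were 2 of 11 (18.2%), RBBP4 positive and MYBL1 negative. The histone-binding core subunit RBBP4 averaged 0.22 ± 0.05 against 2CB and 0.16 ± 0.05 against 8CB (SE, n = 3 each) and was positive on 12 of 12 arrays. MYBL1, a MYB protein related to the partner MYBL2, averaged -0.36 ± 0.06 and -0.31 ± 0.06 and was positive on 0 of 12. DYRK1A, the kinase that promotes DREAM assembly, had 3 probes from -0.38 to 0.30 against 2CB.

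Upstream of the pocket proteins, cyclins, kinases and phosphatases had 26 probes. An unadjusted p under 0.05 was held by 4 of 26 (15.4%) against 2CB, where 16.6% of all probes had one. Against 8CB it was held by 6 of 26 (23.1%), where 9.78% of all probes had one. A CDK2 probe averaged 0.64 ± 0.10 (SE, n = 3) against 2CB, but the gene's 3 probes ran from -0.01 to 0.64. PPP1CC, a phosphatase catalytic subunit, averaged -0.27 ± 0.05 against 2CB for 1 of 3 probes (range -0.33 to 0.03), and cyclin E1, CCNE1, averaged -0.29 ± 0.09 against 8CB. The CDK inhibitor list also held SKP2 and CKS1B, which are not inhibitors. In each comparison 3 of its 13 probes (23.1%) had such a p, 1 positive and 2 negative. The positive one was a SKP2 probe against 2CB (0.72 ± 0.25, SE, n = 3) and CDKN2D against 8CB. Another SKP2 probe was among the negative ones against 8CB (-0.32 ± 0.09). CDKN2D, an inhibitor of the cyclin D kinases, averaged 0.32 ± 0.16 against 2CB and 0.71 ± 0.16 against 8CB, and the related CDKN2B -0.37 ± 0.11 and -0.27 ± 0.11 for 1 of 2 probes, the other at -0.57 and -0.31. SKP2, which marks CDK inhibitors for breakdown, had 4 probes from -0.08 to 0.72 against 2CB.

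In the half-difference, 5 of those 26 probes of cyclins, kinases and phosphatases passed against 2CB (19.2%; 8.13% of all probes) and 2 of 26 against 8CB (7.69%; 4.63%). Cyclin D3, CCND3, had 0.27 ± 0.05 against 2CB (SE, n = 3; limma adjusted p = 0.024) and 0.27 ± 0.05 against 8CB (limma adjusted p = 0.031). Its kinase CDK4 had 0.21 ± 0.05 against 2CB for 1 of 2 probes (limma adjusted p = 0.041), and the other probe had 0.10 (limma adjusted p = 0.43). The averaged ratios of CCND3 and of that first CDK4 probe lay between 0.0039 and 0.07, and these probes followed the dye orientation as E2F3 did. Cyclin A2, CCNA2, passed against 2CB with each of its 2 probes, at 0.36 ± 0.07 (limma adjusted p = 0.033) and 0.38 ± 0.07 (limma adjusted p = 0.026). The latter probe also passed against 8CB, at 0.34 ± 0.07 (limma adjusted p = 0.043). PPP1CC probe EMBV3_42385 passed on the negative side against 2CB, at -0.23 ± 0.05 (limma adjusted p = 0.045). Of the MuvB list 0 of 11 probes passed in either comparison, and of the CDK inhibitor list 0 of 13.

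Of the corepressors that pocket proteins recruit, 6 of 20 probes (30%) had an unadjusted p under 0.05 against 2CB, 2 positive and 4 negative. Against 8CB there were 4 of 20 (20%), 2 on each side. Of all probes 16.6% and 9.78% had one. The half-difference of the corepressors passed for 1 of 20 probes against 2CB (5%, all probes 8.13%) and for 0 against 8CB (all probes 4.63%). The deacetylase HDAC1 averaged 0.74 ± 0.11 (SE, n = 3) against 8CB, and ARID4A, a protein that binds RB1, averaged 0.29 ± 0.07 against 2CB and 0.46 ± 0.07 against 8CB. RBBP7, a histone-binding protein of deacetylase complexes, averaged -0.68 ± 0.14 against 2CB and -0.39 ± 0.14 against 8CB. The chromatin remodeller SMARCA4 averaged -0.36 ± 0.09 against 2CB.

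Known E2F targets of DNA replication and nucleotide supply were split. Against 2CB, 16 of 51 probes (31.4%, all probes 16.6%) had an unadjusted p under 0.05, 6 positive and 10 negative. Against 8CB there were 10 of 51 (19.6%, all probes 9.78%), 4 positive and 6 negative. The median ratio was -0.06 and -0.01. LIG1, a DNA ligase, averaged 0.69 ± 0.12 (SE, n = 3) against 2CB and MCM5, a subunit of the replicative helicase, 0.55 ± 0.12. On the other side stood the helicase factor GINS1 at -0.37 ± 0.07 against 2CB (3 probes, -0.37 to 0.14), and RPA2, which binds single-stranded DNA, at -0.82 ± 0.13 for one probe and -0.0014 for the other. Against 8CB, the thymidylate synthase TYMS averaged 0.38 ± 0.09 (3 probes, 0.09 to 0.38) and the sliding clamp PCNA -0.36 ± 0.05 (4 probes, -0.36 to 0.02). That TYMS probe had half-differences of 0.39 ± 0.04 against 2CB (limma adjusted p = 0.0077) and 0.40 ± 0.04 against 8CB (limma adjusted p = 0.00997). The other TYMS probes did not pass. The half-difference passed for 2 of 51 of these target probes against 2CB (3.92%, all probes 8.13%). Against 8CB it passed for 1 of 51 (1.96%, all probes 4.63%).

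Targets of G2 and mitosis, genes that DREAM represses in resting cells, were split as well. Against 2CB, 15 of 44 probes (34.1%, all probes 16.6%) had an unadjusted p under 0.05, 6 positive and 9 negative. Against 8CB there were 13 of 44 (29.5%, all probes 9.78%), 8 positive and 5 negative. The half-difference passed for 4 of 44 of these probes against 2CB (9.09%, all probes 8.13%). Against 8CB it passed for 2 of 44 (4.55%, all probes 4.63%). The mitotic kinases AURKB and NEK2 averaged 0.96 ± 0.18 (1 of 3 probes, the lowest at 0.05) and 0.38 ± 0.07 against 2CB (SE, n = 3 each). The cytokinesis partners RACGAP1 and KIF23 averaged -0.17 ± 0.04 and -0.33 ± 0.07 against 2CB, and a second RACGAP1 probe averaged -0.04 ± 0.11 against 2CB and 0.11 ± 0.11 against 8CB. Against 8CB, the kinesin KIF20A averaged 0.40 ± 0.11 and cyclin B1, CCNB1, -0.47 ± 0.08. In each of these lists 0 probes passed adjustment for the averaged ratio in the main limma fit.

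**Figure D4:**
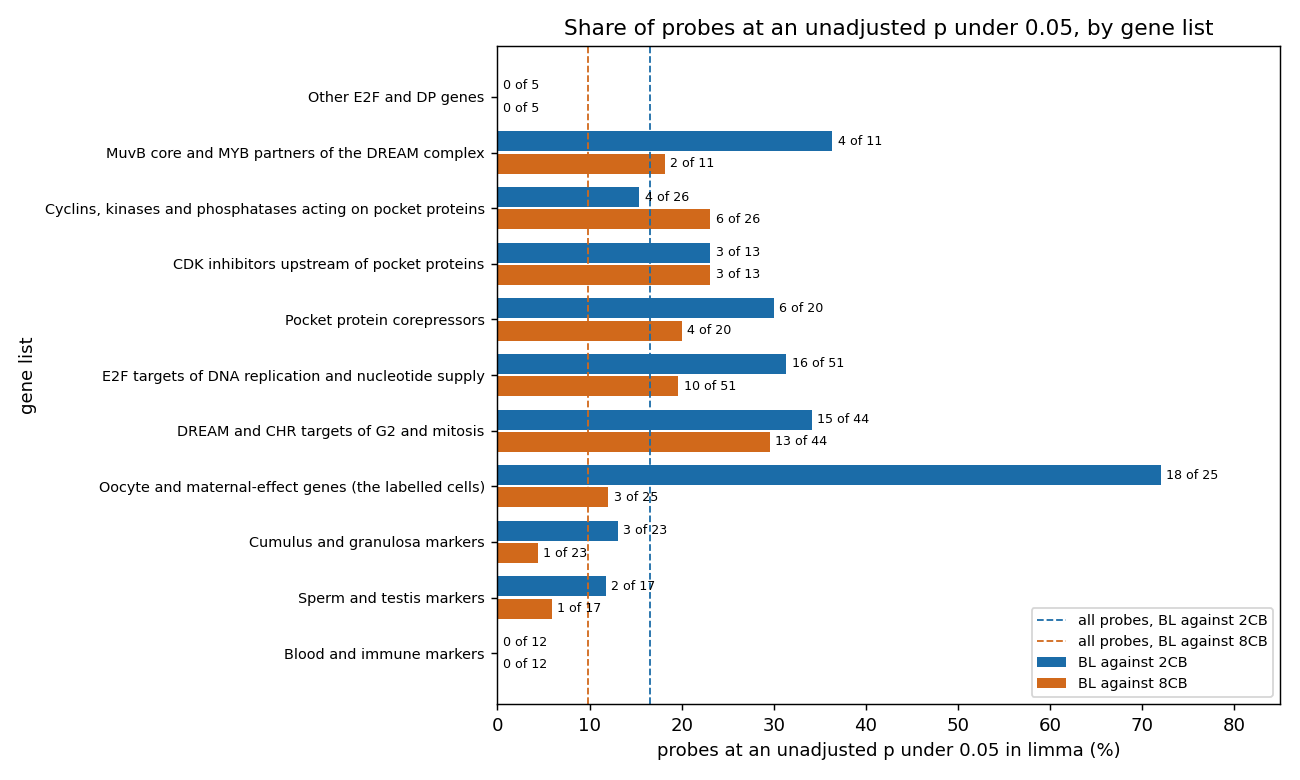
Percentage of probes at an unadjusted p under 0.05 in limma (x axis) for each gene list (y axis), blue for BL against 2CB and orange for BL against 8CB, with the count beside each bar. Dashed lines mark all probes, at 16.6% and 9.78%. The oocyte list stands farthest out against 2CB, with 18 of 25 probes. Against 8CB it holds 3 of 25, and the list of G2 and mitosis targets stands farthest out, with 13 of 44.

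Oocyte and maternal-effect genes, the markers of the labelled cells, lay mostly on the side of E2F4. Against 2CB 22 of 25 probes were positive with a median ratio of 0.42. An unadjusted p under 0.05 was held by 18 of 25 (72%, all probes 16.6%), 17 positive and 1 negative. Against 8CB 23 of 25 were positive with a median of 0.19, and 3 of 25 (12%, all probes 9.78%) had such a p. Their half-difference passed for 4 of 25 probes against 2CB (16%; 8.13% of all probes), 3 positive and 1 negative. Against 8CB it passed for 2 of 25 (8%; 4.63% of all probes), 2 positive and 0 negative. The oocyte linker histone H1-8 averaged 0.95 ± 0.20 (SE, n = 3) against 2CB and 0.52 ± 0.20 against 8CB for the probe with the smallest p, with 4 probes from 0.24 to 0.95 and from 0.10 to 0.52. The importin KPNA7 averaged 0.66 ± 0.13 against 2CB for 1 of 3 probes, which ran from 0.02 to 0.66. On the negative side, DPPA3 averaged -0.24 ± 0.07 against 2CB and -0.18 ± 0.07 against 8CB for 1 of 2 probes. The other DPPA3 probe averaged 0.02 and 0.08. ZAR1, also negative against 2CB, averaged -0.12 ± 0.12. The part of the oocyte genes in the E2F4 result was not tested. Markers of other cells the embryos could carry had medians near 0 in both comparisons, from -0.03 to 0.03, for cumulus and granulosa (23 probes), sperm and testis (17) and blood (12). Ratios cannot show whether any of these markers was present.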

How the data were processed

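Per the labels, amplified RNA of 3 pools of 15 blastomeres per class was labelled with Cy5 or Cy3 and hybridised to Agilent slides. The values that the authors deposited are log ratios, 1 for each probe on each array, read here as log2, the scale of limma, which the submitters' processing notes name without a version. How background, normalization and filters were handled is not given in the sources used here. Scanner intensities were not analysed. The columns with BL in Cy3 were written with more digits (98.7% to 99.2% of values over 6 significant digits) than those with BL in Cy5 (0%).

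The table had 43795 rows; 1 lacked a value and 1 was not a numbered probe, and both were dropped. In the annotation, 21790 probes had 1 symbol, 0 had several and 22003 had none. Of these symbols 20025 were current in RefSeq (ARS-UCD2.0), 1524 were updated and 241 kept. No coordinates are given, as the array's build is not named.

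Dye-swapped arrays of a replicate number were averaged without turning their signs, against the labelled dyes, and the 6 averages were fitted with limma 3.58.1 in R 4.3.3 (lmFit, eBayes; 1 coefficient per comparison, shared spread). Half-differences were fitted likewise. Two-sided p-values were adjusted over the 43793 probes (Benjamini-Hochberg) and the threshold was 0.05. SE is that of the fit. Replicate numbers come from the labels. Deviations of the averages correlated between the comparisons for the same number, at 0.30, 0.39 and 0.35. For the averages the numbers were therefore taken to pair the samples in the fit with a fixed replicate block. The main fit and its SEs hold no term for this pairing. Deviations of the half-differences correlated at -0.24, -0.06 and -0.49, which gives no such pairing. The fit was tested on simulated data with normal noise of each probe's spread. Of 100 probes given a log2 change of 0.5 it called 47, and of 100 given a change of 1 it called 74, with 7 false calls. A change of such a size can therefore be missed. The members, the gene lists and the averaging were chosen with earlier results of these data known. Per list and comparison, the genes named were among up to 2 per side with the smallest unadjusted p and one side in all 3 replicates. Genes named for another comparison, probe or measure as well (CDK4, CCND3, CCNA2, PPP1CC, TYMS, DPPA3 and the ranges of DYRK1A) were chosen after their values were seen. For likeness, the 5 genes with the highest r were named. Alternatives were the turn by labelled dyes, both blocks, each orientation alone, scaling, quantile normalization, separate fits and each replicate left out. Plots used Python 3.11.15 and matplotlib 3.10.9.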

Additional observations from a re-analysis of the deposited data

Results flagged for a closer look

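The averaged ratio of E2F3 lay on opposite sides in the 2 comparisons. It was negative in all 3 replicates of BL against 2CB, at -0.04, -0.02 and -0.15, and positive in all 3 of BL against 8CB, at 0.19, 0.17 and 0.28. The difference (2CB ratio minus 8CB ratio) was -0.29 ± 0.06 on the log2 scale (SE). It had an unadjusted p under 0.05, which is no evidence here, since averaged ratios were known when E2F3 was chosen. Turned by the labelled dyes the difference was 0.17 ± 0.11. Over the whole array limma called 0 differences at an adjusted p under 0.05 and 4.53% of probes at an unadjusted one. The E2F3 half-difference, which follows the labelled dyes, was positive in all replicates of both comparisons.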

How the results depend on the processing

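Turned by the labelled dyes, 3562 probes of the array passed an adjusted p of 0.05 against 2CB and 2028 against 8CB, where averaging called 0, and 7 rather than 4 member probes had an unadjusted p under 0.05 against 2CB. With the random replicate block and its dye coefficient 2492 and 798 probes passed. With the fixed replicate block 1395 passed against 2CB, and with BL in Cy5 alone 4220 and 1407. For the difference between the comparisons, the 2 member probes at an unadjusted p became 0 with the dyes turned, 1 with the random replicate block, 3 with the fixed one, 0 with BL in Cy5 alone and 1 with BL in Cy3 alone. Leaving out a replicate gave 2 to 3 member probes against 2CB, 3 to 6 against 8CB and 1 to 2 for the difference.

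For the half-difference, the 3 member calls against 2CB became 0 with the fixed replicate block and 0 to 1 when a replicate was left out. Array-wide, 3562 calls became 60 with that block and 0 to 1295 with a replicate left out, and 2028 against 8CB became 12 with that block, 96 in a separate fit and 0 to 3393. Adjusted p-values over the alternatives ran from 0.033 to 0.32 for E2F3, 0.043 to 0.33 for E2F5 and 0.027 to 0.33 for RB1 probe EMBV3_18391. In separate fits the E2F5 call was lost (adjusted p = 0.057) and E2F4, at -0.21 against 2CB, gained one (adjusted p = 0.0496). The sign of 2 small half-differences turned: RB1 probe EMBV3_33810 against 2CB (-0.03; -0.11 to 0.062 with a replicate left out) and E2F1 against 8CB (-0.03; -0.12 to 0.023). The causes were not tested; leaving out a replicate also leaves fewer arrays.

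Dyes not turned, the average of E2F4 stayed positive in each orientation alone (0.23 and 0.65 against 2CB, 0.27 and 0.57 against 8CB, BL in Cy5 and BL in Cy3). TFDP1 against 2CB was -0.47 with BL in Cy5 and -0.00089 with BL in Cy3. Member values lay on the other side of 0 in 29 of 220 averaged ratios under an alternative. Of these, 11 were with the dyes turned (of 20, E2F4 in both comparisons). The sides also changed in 22 of 100 differences and 3 of 120 half-differences. Where used, the replicate blocks and separate fits return the values of the main fit. No sign could turn under these settings, yet they are counted in the totals, which makes the signs look more stable. Signal over background was not known.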
